A study of Mus musculus with 21 samples.

Results

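The aminoacyl-tRNA synthetases are the enzymes that join each amino acid to its tRNA. The members described here are 36 genes taken by symbol from a fixed list, of 35266 genes in the deposited tables, and no symbol of the list was absent. They comprise 20 synthetases of the cytosol and 16 nuclear-encoded synthetases of mitochondria, whose symbols end in 2. Expression was measured by RNA-Seq in AGRP and POMC neurons that had been picked by hand from the arcuate nucleus of male mice on a C57BL/6J background, aged 46 to 56 postnatal days. AGRP neurons came from NPY-hrGFP mice and POMC neurons from mice labelled Pomc-GFP, whose reporter the study's methods call Pomc-topazFP, so each population is the cells in which that promoter drove the reporter. Mice were either fed freely or food-deprived (FD) for 24 hours with water only, and each library was made from the neurons of 1 mouse. There were 6 FD and 5 fed AGRP libraries, and 5 FD and 5 fed POMC libraries.

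Charged tRNAs are what the ribosome draws on to build protein, so synthetases are needed in every cell. Several of the cytosolic enzymes are held in a multisynthetase complex together with the scaffold proteins AIMP1, AIMP2 and EEF1E1, whereas others act outside it. *Gars* and *Kars* each encode both the cytosolic and the mitochondrial enzyme for glycine and lysine, and *Eprs* joins the glutamate and proline activities in a single polypeptide. When tRNAs are uncharged, or when protein folding in the endoplasmic reticulum is disturbed, kinases that phosphorylate eIF2alpha favour translation of the transcription factor ATF4. Cytosolic synthetase genes, amino acid transporters and enzymes of amino acid synthesis are textbook targets of ATF4, which binds composite sites with a C/EBP partner. AGRP neurons drive feeding and POMC neurons restrain it, and deprivation activates the former. The comparisons ask how the transcripts of each cell type differ between fed and deprived mice.

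The composite site recognised by ATF4 and C/EBP proteins is often written TGATGNAA. To show where these letters lie, RefSeq promoter windows (GRCm38.p6, 250 bases before to 50 bases after the first base of the gene) were searched on both strands. Windows were found for 27 of the 36 members, and 9 had no entry (*Cars*, *Hars*, *Lars*, *Nars*, *Rars*, *Vars*, *Wars*, *Hars2* and *Pars2*). The letters were present in 5 of 13 cytosolic members with a window and in 0 of 14 mitochondrial members, beside 4.51% of all 27025 genes with a window (3.97% of 32851 windows). The 5 genes were *Aars*, *Gars*, *Iars*, *Tars* and *Yars*. In the sequences that follow, 1 match is shown for each gene, in capitals, and the letters run 5′ to 3′ along the gene's own strand, so that a match on the opposite strand reads as the reverse complement. The first base of the RefSeq gene is position 0. Because another annotation starts *Aars*, *Iars* and *Yars* farther upstream, only 30 bases around the match are given for them.
*Aars*, chr8:111033840-111033869, plus strand, match at position 9: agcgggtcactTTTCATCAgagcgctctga
*Gars*, chr6:55037921-55038020, plus strand, match at position −30: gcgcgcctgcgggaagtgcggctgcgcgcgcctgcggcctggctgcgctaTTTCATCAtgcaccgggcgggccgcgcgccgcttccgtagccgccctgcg
*Iars*, chr13:49682126-49682155, plus strand, match at position 7: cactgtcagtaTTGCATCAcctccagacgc
*Tars*, chr15:11399639-11399738, minus strand, match at position −15: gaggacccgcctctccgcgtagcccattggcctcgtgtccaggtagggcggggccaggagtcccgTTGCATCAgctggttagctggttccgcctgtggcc
*Yars*, chr4:129189895-129189924, plus strand, match at position 3: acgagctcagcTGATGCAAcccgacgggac

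These matches are descriptions of letters in a window, and no binding was measured. Of the genes with a match, *Aars* and *Gars* are among the members called higher in FD AGRP neurons below, and *Iars*, *Tars* and *Yars* are not. *Eprs*, also called, had a window without the letters, and *Cars*, *Hars*, *Lars* and *Rars*, called as well, had no window. A link between the letters and the changes was not tested. The E-box letters CACGTG, bound by basic helix-loop-helix factors, were present in 4 of 13 cytosolic members (*Aars*, *Farsb*, *Iars* and *Tars*) and in 1 of 14 mitochondrial members (*Ears2*), beside 8.09% of all genes with a window (7.15% of windows). The letters TGACGTGG, part of an endoplasmic reticulum stress site, were found in 0 member windows and in 0.714% of all genes (0.676% of windows). The last motif and the E-box have the letters ACGTG in common, and neither contains the other.

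Depth was 9822298 to 37663979 gene counts per library (median 19189780), and all 36 members passed the filter of over 1 CPM (counts relative to library size) in at least 3 libraries that left 16513 genes to test. Library preparation amplified the RNA without molecular identifiers, so a floor of 3 counts, which is 0.0797 to 0.305 CPM, covers counting error only. The labelled cell types fit their defining neuropeptides, and the TPM of 16 markers of astrocytes, oligodendrocytes, microglia and endothelial cells summed to 40.4 to 54.6 in fed AGRP, 28.4 to 48.4 in FD AGRP, 31.0 to 42.2 in fed POMC and 25.5 to 63.2 in FD POMC libraries. The oligodendrocyte marker *Mbp* was the highest, with group means from 23.3 TPM (fed POMC) to 33.9 TPM (fed AGRP). The microglial marker *C1qa* was at 0 in every library, *Cldn5* (endothelial) in all but the FD AGRP group and *Cx3cr1* (microglia) in every FD AGRP library. Other microglial markers were detected, as *Aif1* reached 10.7 TPM in a fed POMC library and *Csf1r* 3.10 TPM in an FD AGRP library. Of the 11 of these markers that could be tested, 1 was higher in FD than fed AGRP neurons (*Aldh1l1*) and 0 differed in POMC neurons, and their part in the synthetase results was not tested. Spike-in RNA was added in 3 ways (1 µl, 10 µl, or a volume scaled to the number of sorted cells), and libraries are grouped below by these sets. The labels give volumes and name no batch. In AGRP neurons the scaled libraries came from mice aged 46 or 47 days and the others from mice aged 51 or 55 days. AGRP FD replicate 2 (50 cells, 1 µl) fits both the 1 µl and the scaled set and was counted as scaled.

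The median cytosolic synthetase was expressed well above the median mitochondrial one in both cell types, but this order did not hold for every amino acid. Levels between genes are given in TPM (transcript units scaled to the same total in each library), which the authors corrected for exon length. *Nars*, the asparagine enzyme, had the highest mean over the 21 libraries at 317 TPM, and *Vars*, the valine enzyme, the lowest of the cytosolic members at 10.9 TPM. Among mitochondrial members the means ran from 57.0 TPM for *Rars2*, the arginine enzyme, down to 3.59 TPM for *Pars2*, the proline enzyme. The mean of *Lars2* (51.2 TPM) lay above that of *Lars* (43.0 TPM), and *Vars2* (9.99 TPM) lay close to *Vars*. The median cytosolic member lay at 56.5 TPM in fed AGRP, 71.5 in FD AGRP, 57.0 in fed POMC and 50.8 in FD POMC neurons. The median mitochondrial member lay at 13.8, 9.77, 13.8 and 11.3 TPM in the same order. Low mitochondrial members were measured with few reads, as *Pars2* fell to 1 count and *Aars2* to 4 counts in a single library, whereas the lowest count of any cytosolic member was 92 (*Vars*).

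**Figure D1:**
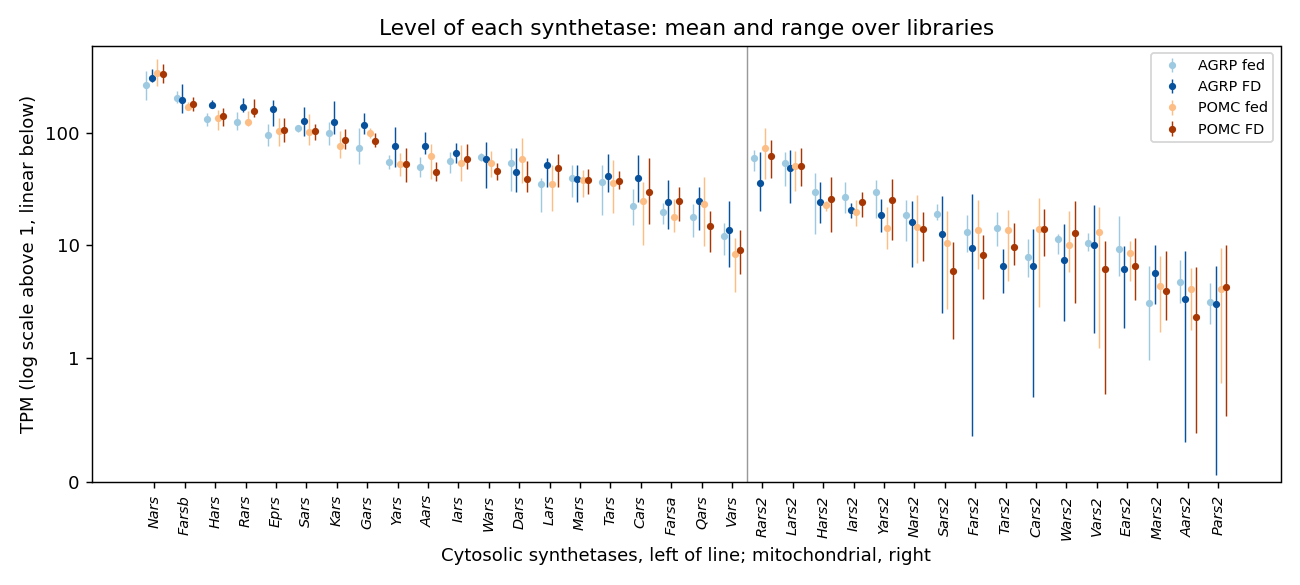
TPM of each of the 36 synthetases (horizontal axis, ordered by mean within cytosolic and mitochondrial members) in the 4 groups, on an axis that is logarithmic above 1 TPM and linear below. Points are group means and lines span the lowest to the highest library. *Nars* leads at a mean of 317 TPM, and the ranges of the mitochondrial members widen toward *Pars2* at 3.59 TPM.

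In AGRP neurons, 7 cytosolic synthetases rose with food deprivation relative to the other transcripts and no member fell. The genes were *Aars*, *Cars*, *Eprs*, *Gars*, *Hars*, *Lars* and *Rars*, which charge tRNAs with alanine, cysteine, glutamate and proline, glycine, histidine, leucine and arginine. Their log2 fold changes lay between 0.66 and 1.10. Calls were made at q under 0.05, where q stands for the p-value of the edgeR quasi-likelihood test after Benjamini-Hochberg adjustment across all 16513 genes. At this threshold 10.3% of all genes differed between FD and fed AGRP neurons, and 5.87% were higher in FD. Among the 8198 genes whose mean exceeded 20 CPM in a group, 10.8% were higher, beside 7 of the 18 cytosolic and 0 of the 7 mitochondrial members at that level. An unadjusted p under 0.05 was found for 13 of the 20 cytosolic members, the 7 called ones included by definition. All 13 were higher in FD. Among all 16513 genes, 3686 had such a p, of which 1911 were higher.

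*Eprs* (ENSMUSG00000026615, chromosome 1, 185363044 to 185428360 in mm10) had the smallest q. In fed AGRP neurons it measured 163, 126, 105, 140 and 143 normalised CPM (CPM on the TMM-scaled library size), and in FD AGRP neurons the lowest library held 169, the median 290 and the highest 327. Every FD library was thus above every fed library. The log2 fold change was 1.02 (SE 0.19, q = 0.000462). In POMC neurons *Eprs* read 140, 137, 145, 199 and 198 normalised CPM when fed and 203, 122, 200, 122 and 130 when FD, and the fed range lay inside the FD range.

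*Aars* (ENSMUSG00000031960, chromosome 8, 111033902 to 111057664) showed the same separation in AGRP neurons, with fed libraries at 63.4, 72.1, 95.2, 79.8 and 102 normalised CPM and FD libraries from 120 (lowest) through 144 (median) to 217 (highest). Its log2 fold change was 0.86 (SE 0.19, q = 0.00267). POMC neurons gave 84.5, 95.4, 124, 142 and 126 normalised CPM when fed and 71.9, 63.3, 85.6, 73.6 and 95.9 when FD, so the FD libraries lay toward the lower end. That POMC difference, a log2 fold change of −0.55 (SE 0.20), had an unadjusted p under 0.05 but did not pass adjustment (q = 0.203).

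*Gars* (ENSMUSG00000029777, chromosome 6, 55038001 to 55079504), which serves both compartments, measured 48.3, 38.9, 40.0, 73.9 and 51.7 normalised CPM in fed AGRP neurons, against 70.3, 91.1 and 142 for the lowest, median and highest FD library. Only fed replicate 4 reached into the FD range. The log2 fold change was 0.94 (SE 0.21, q = 0.00287). *Gars* in POMC neurons lay at 99.8, 77.1, 70.5, 75.3 and 71.3 normalised CPM when fed and at 62.5, 60.6, 57.0, 53.7 and 72.5 when FD, which gave −0.36 (SE 0.21) without a call.

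*Hars* read 74.4, 91.1, 73.5, 78.5 and 66.2 normalised CPM in fed AGRP neurons and 105, 112 and 155 for the lowest, median and highest FD library. These groups did not overlap, and the log2 fold change was 0.66 (SE 0.19, q = 0.0182). *Hars* (ENSMUSG00000001380, chromosome 18, 36766530 to 36783205, minus strand) overlaps head to head with *Hars2* (chromosome 18, 36783008 to 36792562, plus strand), the mitochondrial histidine enzyme. Of its exon bases in GENCODE M21, 7.97% are shared with *Hars2*, and reads there cannot be assigned by strand. *Hars2* itself had a log2 fold change of −0.02 (SE 0.32).

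*Rars* (ENSMUSG00000018848, chromosome 11, 35808381 to 35834506) measured 63.8, 99.3, 81.6, 63.6 and 70.4 normalised CPM in fed AGRP neurons and ran from 96.3 through 121 to 146 in the FD libraries. The highest fed library lay just inside the FD range, and the log2 fold change was 0.70 (SE 0.18, q = 0.00921). *Rars* in POMC neurons had a log2 fold change of 0.22 without a call.

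*Cars* (ENSMUSG00000010755, chromosome 7, 143557230 to 143600090) and *Lars* (ENSMUSG00000024493, chromosome 18, 42202350 to 42262122) had the largest q of the 7. *Cars* read 20.6, 20.7, 18.7, 29.0 and 14.02 normalised CPM in fed AGRP neurons and 23.5, 42.5 and 68.9 for the lowest, median and highest FD library, with a log2 fold change of 1.10 (SE 0.35, q = 0.0417). *Lars* read 39.5, 46.8, 42.9, 40.9 and 22.1 when fed and 42.7, 67.3 and 84.8 when FD, with a log2 fold change of 0.82 (SE 0.26, q = 0.0385). The ranges overlapped for both genes. Each kept its call in 4 of the 11 fits that left out 1 AGRP library, with q reaching 0.11 for *Cars* and 0.12 for *Lars*.

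**Figure D2:**
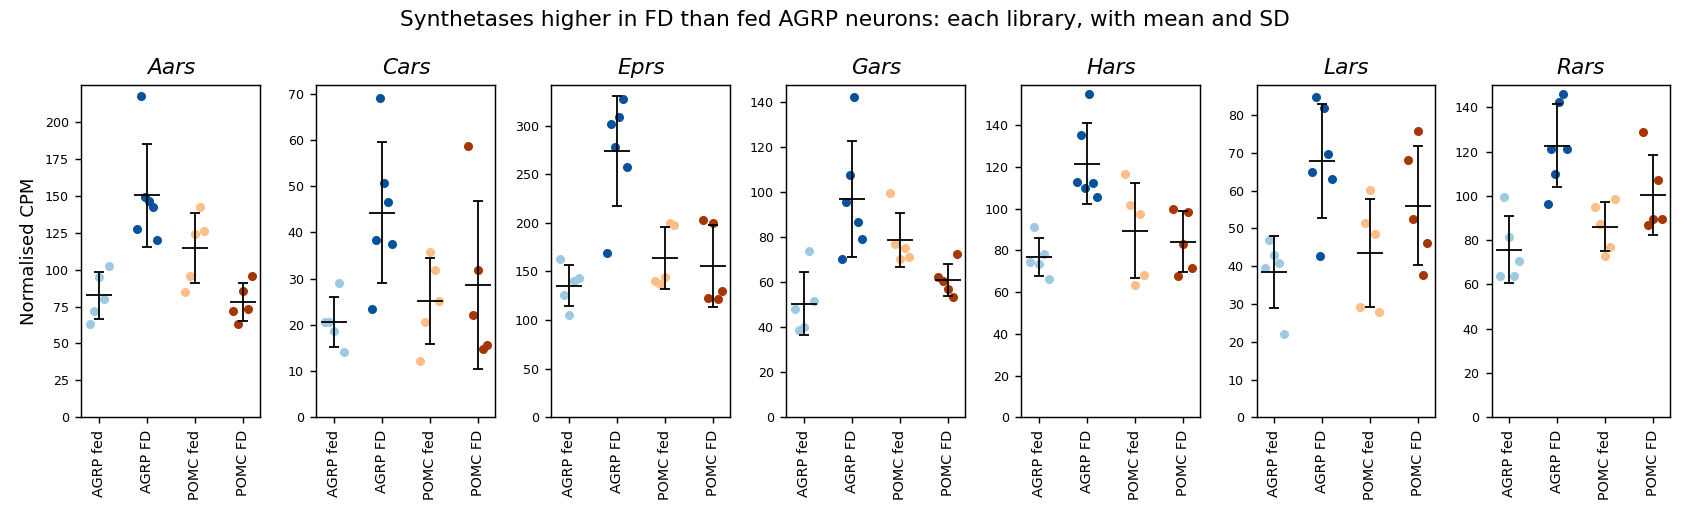
Normalised CPM (vertical axis, from 0) of the 7 synthetases higher in FD than fed AGRP neurons, in each library of the 4 groups, with the mean and SD as bars. FD AGRP libraries lie wholly above fed AGRP libraries for *Aars*, *Eprs* and *Hars*, whereas fed and FD POMC libraries overlap in every panel.

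By the study's criteria for a differentially expressed gene (q under 0.05, a log2 change of more than 1 in either direction, and more than 20 CPM on average in a group), 2 members were counted as higher in FD AGRP neurons, *Cars* and *Eprs*, beside 2.53% of all genes. FD libraries lay wholly above fed libraries for 4 members, namely *Aars*, *Eprs*, *Hars* and *Sars*, the serine enzyme, beside 4.08% of all genes. *Sars* missed the threshold (log2 fold change 0.46, SE 0.17, q = 0.0977). Of the 13 cytosolic members without a call, none had a negative fold change, and their log2 values ran from 0.0037 (*Dars*) to 0.72 (*Yars*, q = 0.0577). Over the 20 cytosolic members the median log2 fold change was 0.57, beside −0.02 over all genes tested and 0.09 over the 8198 better expressed genes. By role, 3 of the 8 complex-bound synthetases (*Eprs*, *Lars* and *Rars*) and 4 of the 12 that act outside the complex were called, with medians of 0.64 and 0.51.

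Mitochondrial synthetases did not share this pattern. Of the 16, 0 passed the edgeR test in either direction. An unadjusted p under 0.05 was found for 2, 1 in each direction, beside 3686 of all 16513 genes. The median log2 fold change was −0.14, with 6 positive and 10 negative values. *Mars2*, the mitochondrial methionine enzyme, had the largest value at 1.15 (SE 0.51, q = 0.167), from 10.4, 3.96, 3.10, 10.8 and 21.3 normalised CPM in fed AGRP neurons and 11.6, 17.0 and 41.6 for the lowest, median and highest FD library. *Tars2*, the threonine enzyme and outside the rule for named genes, was lowest at −0.90 (SE 0.36, q = 0.122). Standard errors reached 0.91 for the mitochondrial members, against at most 0.40 for the cytosolic ones, so a change of the cytosolic size was harder to detect in them. In pairs of a cytosolic and a mitochondrial enzyme for the same amino acid, the AGRP log2 fold change was larger for the cytosolic gene in 16 of 17 pairs, with a median difference of 0.73, the exception being *Mars* and *Mars2*. In POMC neurons it was larger in 11 of 17 pairs, with a median difference of 0.40. *Eprs* and *Fars2* each enter more than 1 pair, so the pairs are not all independent.

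**Figure D3:**
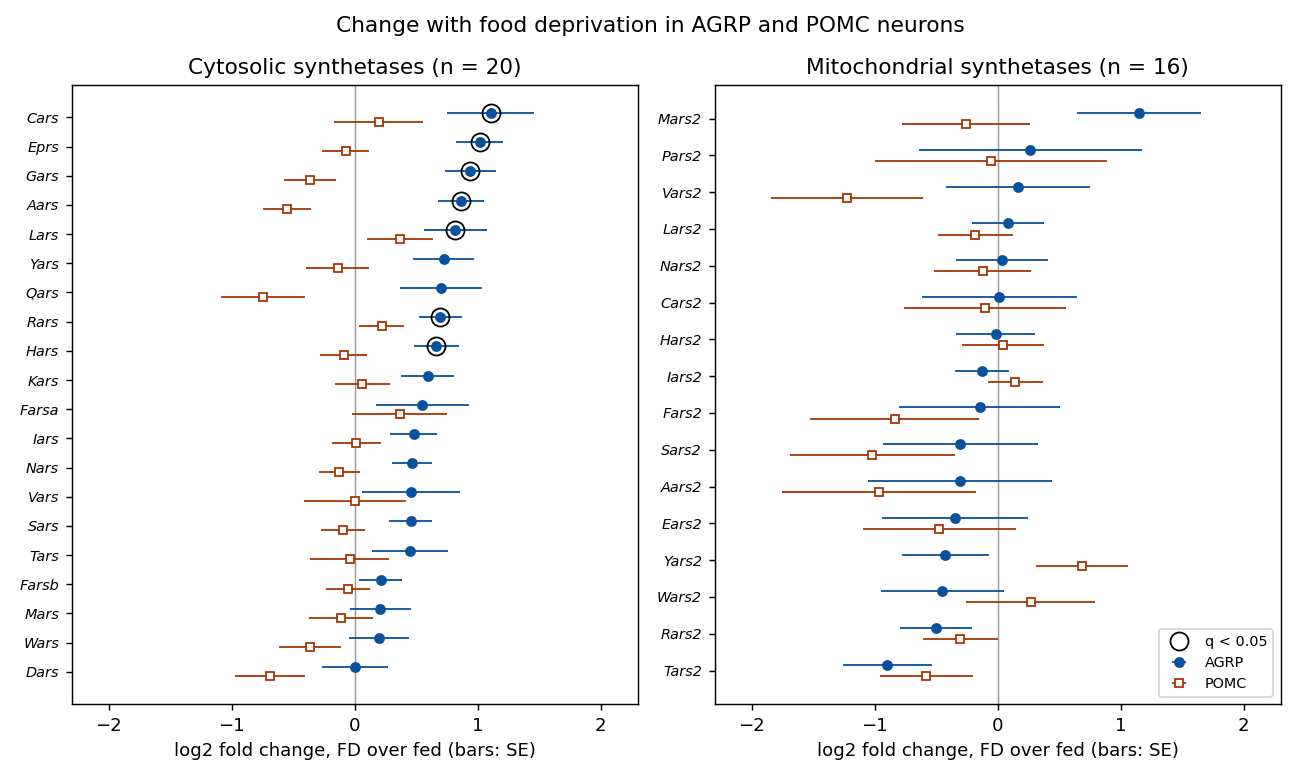
Log2 fold change of FD over fed (horizontal axis, bars are SE) for 20 cytosolic and 16 mitochondrial synthetases in AGRP (filled circles) and POMC (open squares) neurons, with rings at q under 0.05. All 7 rings are on cytosolic genes in AGRP neurons, where every cytosolic value is positive on TMM scaling, although 18 of these 20 values turn negative when libraries are scaled by spike-in counts.

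The shift could be seen library by library. Relative to the mean of the fed libraries of the same cell type, on the scale of log2(normalised CPM + 1), the median cytosolic member lay at 0.27 to 0.87 in all 6 FD AGRP libraries. In the fed AGRP libraries it lay between −0.10 and 0.10, and in the FD POMC libraries between −0.17 and −0.02. Summed TPM of the cytosolic members were 1584 ± 110 (SD, n = 5) in fed and 1957 ± 107 (n = 6) in FD AGRP neurons, and these ranges did not overlap (1464 to 1694 and 1831 to 2135). POMC sums were 1634 ± 190 (SD, n = 5) when fed and 1651 ± 111 (n = 5) when FD. Mitochondrial sums were 316 ± 25.9 (SD, n = 5) in fed and 237 ± 35.98 (n = 6) in FD AGRP neurons, with overlapping ranges, and 293 ± 52.6 and 277 ± 24.3 in fed and FD POMC neurons (n = 5 each). The ratio of the cytosolic to the mitochondrial sum was 5.98 to 9.97 in FD AGRP and 4.39 to 5.42 in fed AGRP libraries, beside 4.499 to 6.99 in fed and 5.41 to 6.58 in FD POMC libraries, both of which overlap the FD AGRP range. All values are shares of the RNA of a sorted pool, which held 44 to 214 cells. Whether the amount of RNA per cell changed was not tested.

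**Figure D4:**
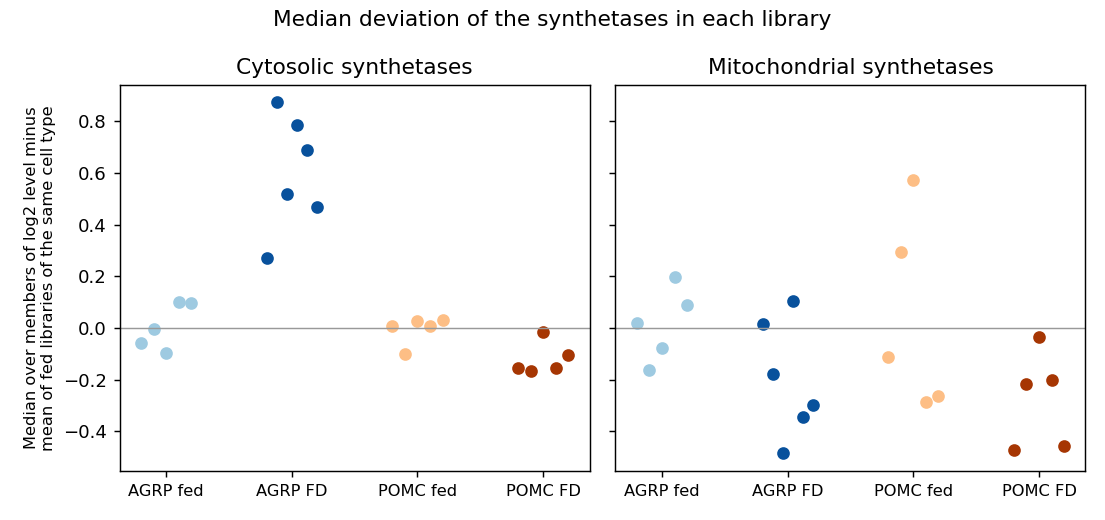
Median over the cytosolic (left) and mitochondrial (right) synthetases of the log2 level in each library minus the mean of the fed libraries of the same cell type, on log2(normalised CPM + 1). The 6 FD AGRP libraries lie between 0.27 and 0.87 for the cytosolic members, above all libraries of the other groups.

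Within spike-in sets, the 7 called members had a positive difference between FD and fed AGRP neurons in every set. The medians were 1.00 (1 µl, 1 FD and 1 fed library), 0.67 (10 µl, 2 and 2) and 0.77 (scaled, 3 and 2). The 7 were called on the same libraries, so their signs within the sets are no independent support. Of the 20 cytosolic members, 17, 20 and 18 were positive in these sets. Leaving out fed AGRP replicate 5 lowered the number of calls from 7 to 4, and these 4 were among the 7. Scaling the libraries by ERCC spike-in counts in place of TMM ended all calls (0 of 36). This scaling divided the ERCC counts by the volume added and not by sorted cells, which numbered 44 to 214 per library. In fed AGRP libraries the ERCC counts ran from 53105 at 4.28 µl (replicate 5) to 2755357 at 10 µl (replicate 2). AGRP fed replicate 5 and AGRP FD replicate 3 received spike-in mix 2 and the others mix 1. The part of this spread in the lost calls was not tested. Spike-in scaling moved the median of all genes to −0.93. The cytosolic median then stood at −0.50, which is 0.43 above the median of all genes, with 18 of 20 values negative.

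In POMC neurons no synthetase passed the edgeR test for FD against fed, beside 0.375% of all genes. Of the 36 members, 3 had an unadjusted p under 0.05, beside 2010 of all 16513 genes. All 3 were cytosolic and lower in FD (*Aars*, *Dars* and *Qars*). With limma-voom and DESeq2, 0 members were called as well. The median log2 fold change was −0.08 for the cytosolic and −0.22 for the mitochondrial members, beside −0.02 for all genes. For 0 members did the FD and fed ranges separate, beside 1.08% of all genes with FD wholly higher and 1.27% with FD wholly lower. The 7 genes that rose in AGRP neurons had POMC values from −0.55 to 0.37 (median −0.07), with q from 0.203 to 0.93. The within-set comparison was possible only for the 1 µl set (3 FD and 3 fed libraries), in which 4 of these 7 and 7 of all 20 cytosolic members were positive, since the 10 µl POMC libraries were all FD and the scaled ones all fed.

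The largest POMC values belonged to mitochondrial members with wide spread. *Vars2* had a log2 fold change of −1.22 (SE 0.62, q = 0.435), *Sars2* of −1.02 (SE 0.67) and *Aars2* of −0.97 (SE 0.79). *Vars2* ran from 1.64 through 19.8 to 30.1 normalised CPM in fed and from 0.942 through 7.86 to 14.2 in FD POMC neurons (lowest, median and highest). The ranges of these 3 genes overlapped.

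Whether the response to deprivation differed between the cell types was tested by the interaction term of the same model. It was called for 3 members, *Aars*, *Gars* and *Eprs*, all with the larger change in AGRP neurons, beside 6.71% of all genes in either direction and 4.08% in this direction. The AGRP change exceeded the POMC change by 1.42 on the log2 scale for *Aars* (SE 0.27, q = 0.00121), by 1.30 for *Gars* (SE 0.30, q = 0.00643) and by 1.09 for *Eprs* (SE 0.27, q = 0.0114). All 3 stayed called in each of the 21 fits that left out 1 library. In the 1 µl set, the only set with all 4 groups, the same differences were 1.98, 1.10 and 1.07. That set holds 1 FD and 1 fed AGRP library, and its libraries are among those behind the calls. For *Hars*, *Rars*, *Cars* and *Lars* the difference between cell types was not called, at 0.75, 0.48, 0.91 and 0.45. *Qars*, the glutamine enzyme, had the largest value of any member at 1.45 (SE 0.48) but missed the threshold (q = 0.0643), and *Mars2* stood at 1.41 (q = 0.28). All 20 cytosolic values were positive (median 0.56), beside 10 of 16 for the mitochondrial members (median 0.14) and a median of 0.01 over all genes. With spike-in scaling the 3 values were close to those above (1.44, 1.50 and 1.11) but no member was called.

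The cell types were also compared directly within each feeding state. When fed, 0 members differed by the edgeR test between AGRP and POMC neurons, beside 7.57% of all genes. There were 4 unadjusted p-values under 0.05, beside 3128 among all 16513 genes. *Aars*, *Gars* and *Nars* were lower and *Yars2* higher in AGRP neurons. With limma-voom 1 member was called and with DESeq2 2, all lower. *Nars*, the most abundant member, was nearest to the threshold with a log2 fold change of −0.52 (SE 0.17, q = 0.0502). Among the largest values, *Cars2* stood at −0.98 (SE 0.66), *Yars2*, the tyrosine enzyme, at 0.87 (SE 0.37, q = 0.183) and *Mars2* at −0.68 (SE 0.52). Of the 20 cytosolic members, 17 had lower values in AGRP neurons on TMM scaling (median −0.15), whereas all 20 had higher values on spike-in scaling. That scaling moved the median of all genes to 0.82 and that of these members to 0.72. Within sets the cytosolic median was −0.16 in the 1 µl set (1 AGRP and 3 POMC libraries) and −0.0002 in the scaled set (2 and 2).

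After deprivation, 7 members were higher in AGRP than POMC neurons and none was lower. They were *Aars* (log2 fold change 0.95, SE 0.19, q = 0.000473), *Eprs* (0.82, SE 0.19, q = 0.00187), *Kars* (0.74, SE 0.22, q = 0.015), *Gars* (0.66, SE 0.21, q = 0.022), *Yars* (0.73, SE 0.25, q = 0.0348), *Hars* (0.53, SE 0.18, q = 0.0413) and *Sars* (0.49, SE 0.17, q = 0.0455). Among all genes 18.6% differed between the cell types in this state and 9.28% were higher in AGRP neurons. This comparison uses the same FD AGRP libraries as the one above. All 20 cytosolic values were positive, with a median of 0.51, beside 9 of the 16 mitochondrial values with a median of 0.09.

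*Kars*, the lysine enzyme, ran from 71.4 through 85.7 to 158 normalised CPM in FD AGRP neurons (lowest, median, highest) and read 48.9 to 73.6 in FD POMC neurons. *Yars* ran from 48.1 through 68.5 to 130 in FD AGRP and from 32.1 to 63.7 in FD POMC neurons. Both pairs of ranges overlapped, as did those of *Sars*, at 125 to 210 and 93.7 to 132. *Sars2* had the largest value, at 1.34 (SE 0.66, q = 0.164), and *Qars* followed at 0.89 (SE 0.33, q = 0.0604). A term for the spike-in set left 3 of the 7 calls (*Aars*, *Eprs* and *Sars*), a fit of these 2 groups alone left 4, and spike-in scaling left 0. Leaving out FD AGRP replicate 4 left 3 calls, and leaving out FD POMC replicate 3 or 4 left 4 each. The 7 genes were positive in the 1 µl and 10 µl sets alike, with medians of 0.52 (1 AGRP and 3 POMC libraries) and 0.65 (2 and 2). These signs are not independent of the calls, which rest on the same libraries.

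Genes of the pathway around the synthetases were read from lists that had been chosen with earlier results of these data known, so their counts are no independent evidence. *Atf4* rose in FD AGRP neurons, from 76.6, 84.9, 79.3, 91.5 and 107 normalised CPM when fed to 114, 178 and 343 for the lowest, median and highest FD library. The groups did not overlap, and the log2 fold change was 1.13 (SE 0.24, q = 0.00194). In POMC neurons *Atf4* lay at 69.2 to 144 when fed and 68.1 to 110 when FD, and the interaction was 1.15 (SE 0.34, q = 0.0368).

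Of 34 ATF4 and amino acid response genes, 30 were tested. In AGRP neurons 6 rose and 1 fell, beside 969 and 731 of all 16513 genes. The median log2 fold change of the 30 was 0.38. *Atf3*, a stress-induced transcription factor, rose from a fed median of 1.78 to an FD median of 25.9 normalised CPM (log2 fold change 3.34, SE 1.03, q = 0.0353). *Ddit4*, an inhibitor of mTORC1 signalling, rose by 1.16 (SE 0.38, q = 0.0449), and *Aldh1l2*, a mitochondrial folate enzyme, fell by 1.17 (SE 0.35, q = 0.0296). With limma-voom neither passed (q = 0.0529 for *Ddit4* and 0.0684 for *Aldh1l2*), and 7 genes of the list rose and 1 fell. The other genes that rose, named after their values were seen, were the lipoprotein receptor *Vldlr* (1.12) and the amino acid transporters *Slc7a1* (0.82) and *Slc38a2* (0.80). *Asns*, asparagine synthetase and a classical target of ATF4, had a log2 fold change of 0.30 without a call (q = 0.46). In POMC neurons 0 of the 30 passed the edgeR test, 2 had an unadjusted p under 0.05, and limma-voom and DESeq2 called 0. With spike-in scaling no gene of the list was called in AGRP neurons, and *Atf4* (−0.10), *Slc7a1* (−0.24) and *Slc38a2* (−0.39) turned negative while the list median stood at −0.57, above that of all genes.

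**Figure D5:**
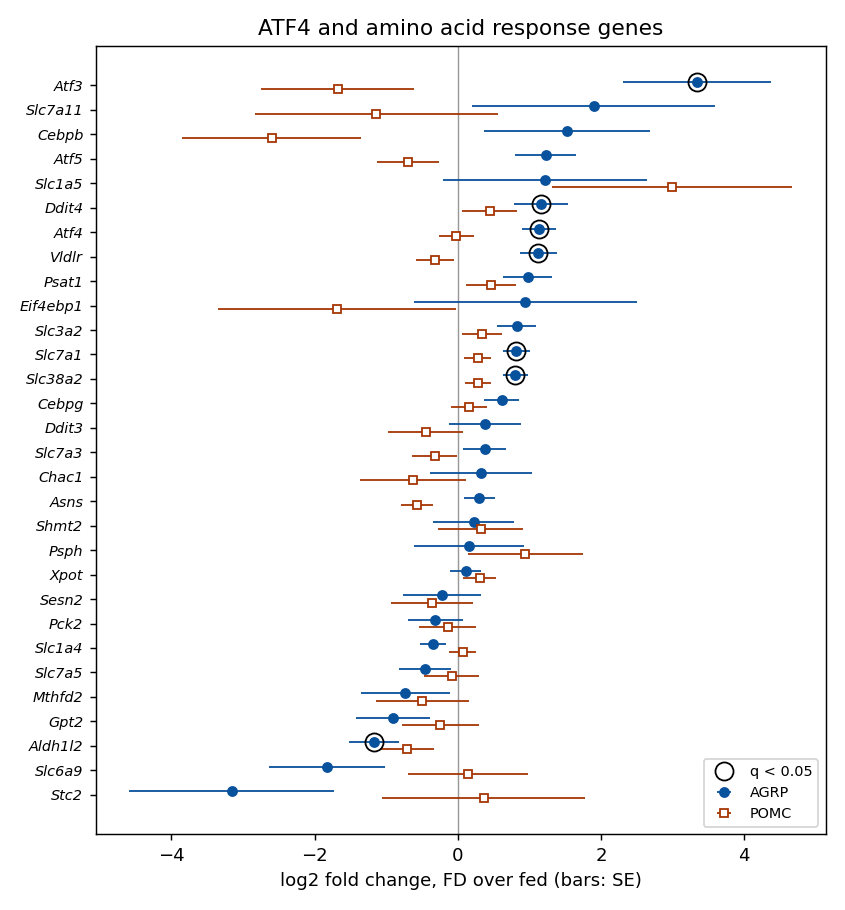
Log2 fold change of FD over fed (horizontal axis, bars are SE) for the 30 tested ATF4 and amino acid response genes in AGRP (filled circles) and POMC (open squares) neurons, with rings at q under 0.05. The 7 rings mark 6 genes that rose and *Aldh1l2*, which fell, all in AGRP neurons on TMM scaling, of which *Atf4*, *Slc7a1* and *Slc38a2* turn negative on spike-in scaling.

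In AGRP neurons 969 of all 16513 genes rose and 731 fell. Of 14 eIF2alpha kinases and eIF2 regulators, 2 rose in these neurons. These were *Ppp1r15a*, which directs a phosphatase to eIF2alpha (1.40, SE 0.40, q = 0.0206, but 0.13 on spike-in scaling), and *Eif2s1*, which encodes eIF2alpha itself (0.75, SE 0.21, q = 0.0225, but −0.17 on spike-in scaling). None of the 3 scaffolds of the multisynthetase complex was called (0 by edgeR, limma-voom and DESeq2, and 0 at an unadjusted p under 0.05), with log2 fold changes of 0.28 for *Aimp1*, −0.70 for *Aimp2* and −0.03 for *Eef1e1*. Of 9 tested synthetase-related genes outside the member list, 2 fell, namely *Gatb*, a subunit of the mitochondrial amidotransferase that makes glutaminyl-tRNA (fell by 1.81, SE 0.51, q = 0.0197), and *Dtd2*, a proofreading deacylase (fell by 0.96, SE 0.29, q = 0.0263). Among 13 elongation factors *Eif5a* rose (0.60, SE 0.18, q = 0.0313, but −0.54 on spike-in scaling), and among 16 genes of tRNA processing and export the ribonuclease P subunit *Rpp40* fell by 2.47 (SE 0.69, q = 0.0178). With spike-in scaling none of these 6 genes was called, with q of 0.344 for *Gatb*, 0.54 for *Dtd2* and 0.232 for *Rpp40*, which kept negative values, and of 0.71 to 0.93 for the others. No gene of these lists was called in POMC neurons by edgeR, limma-voom or DESeq2, and 1 gene of the processing and export list had an unadjusted p under 0.05.

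Some members share exon bases with neighbouring genes in GENCODE M21, and counting took no account of strand. The largest shares were 24.2% for *Iars2*, 15.1% for *Aars*, which overlaps *Exosc6* on the same strand, 10.7% for *Fars2* and 9.47% for *Farsb*. *Eprs*, *Gars*, *Lars* and *Rars* shared no exon bases with another gene, and *Cars* shared 3.21%.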

How the data were processed

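RNA-Seq of 21 libraries was used, each from 1 mouse, and groups were taken from the sample labels. The authors trimmed reads with cutadapt (1.7.1), removed abundant sequences with Bowtie2 (2.1.0), mapped the rest to mm10 with STAR (2.4.0i) and counted them with HTSeq (0.6.1p1) on Gencode genes without strand, with versions as given in the submitters' processing notes. The deposited counts are unnormalised, and the authors made the deposited TPM from them by exon length. Entries of 92 ERCC spike-ins and 5 summary rows were kept apart, and reads on no gene made up 24.2 to 52.1% and ambiguous reads 0.951 to 1.57% of a library.

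Counts of genes over 1 CPM in at least 3 libraries were scaled by TMM and fitted in 1 edgeR quasi-likelihood model of 4 groups, with two-sided tests, Benjamini-Hochberg adjustment over 16513 genes and a threshold of 0.05 (R 4.3.3, edgeR 4.0.16). The SE is the absolute log2 fold change over the square root of F. The study used limma-voom, which was run as an alternative (limma 3.58.1), as was DESeq2 (1.42.0). Other alternatives were RLE normalisation, ERCC scaling, a spike-in set block, a replicate block, the number of sorted cells as covariate, no filter, only the groups compared, and each library left out. Reading the related lists under limma-voom, DESeq2, RLE and ERCC scaling was added after their values were seen. Scripts were tested on simulated counts. Start coordinates, which the files count from 0, are given from 1.

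Members with q under 0.05 in any of 5 comparisons, the 3 with the largest change in each, and the highest and lowest by TPM in each compartment were named with values, with any other gene marked as such where it is singled out. *Atf4* and the scaffolds were always named, with up to 4 called genes of each related list. For 1 related gene under this rule and 1 sequence, nothing is reported here. The members and lists were chosen with earlier results of these data known. Amplified reads are not independent molecules, so the spread between mice was used.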

Additional observations from a re-analysis of the deposited data

Results flagged for a closer look

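In 4 of the 68 groups of libraries examined for the named members, a single library stood apart from the others. The nominal rate for chance alone is about 1 in 20, which was not measured here. *Aars* in AGRP FD replicate 2 lay at 217 normalised CPM, with the nearest FD library at 149, and without it the log2 fold change between FD and fed AGRP neurons was 0.73. *Gars* in POMC fed replicate 1 lay at 99.8, with the nearest at 77.1. *Mars2* in POMC FD replicate 2 lay at 29.8, with the nearest at 13.7. *Vars2* in AGRP fed replicate 4 lay at 16.1, with the nearest at 13.1.

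The change with deprivation differed between AGRP and POMC neurons for *Aars* by 1.42 on the log2 scale (edgeR q = 0.00121), for *Gars* by 1.30 (q = 0.00643) and for *Eprs* by 1.09 (q = 0.0114).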

How the results depend on the processing

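The number of members called in FD against fed AGRP neurons was 5 to 9 under 8 of the 9 alternatives and 0 with ERCC scaling. ERCC scaling also left 0 calls between the FD cell types and 0 in the interaction. With this scaling the log2 fold change in AGRP neurons turned to −0.26 for *Aars*, −0.14 for *Eprs*, −0.24 for *Gars*, −0.24 for *Hars*, −0.21 for *Rars* and −0.51 for *Mars2*, and *Mars2* between the fed cell types turned to 0.91. ERCC scaling moved the median of all genes to −0.93 in AGRP neurons and to −1.28 in POMC neurons. That median became 0.82 and 1.17 between the fed and FD cell types and 0.36 in the interaction. Between the FD cell types the compared groups alone gave 4 calls and the spike-in set block 3, against 7. Between the fed cell types limma-voom gave 1 call and DESeq2 2, against 0. Leaving out 1 library gave 4 to 8 calls in AGRP neurons, 0 in POMC neurons, 3 to 8 between the FD cell types (FD AGRP replicate 4 the lowest), 0 to 1 between the fed cell types (1 without AGRP fed replicate 1, AGRP fed replicate 4 or POMC fed replicate 2) and 3 to 4 in the interaction.

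With a replicate block the counts were 6 in AGRP neurons, 0 in POMC neurons, 7 between the FD and 0 between the fed cell types and 3 in the interaction. Same-numbered libraries are different mice, and their deviations correlated at −0.157 to −0.00034 across genes over the 5 AGRP pairs, so the numbers do not pair the samples. Low counts limit the mitochondrial members most, with as few as 1 count in a library.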
